A study of Homo sapiens with 8 samples.

Results

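Planar cell polarity aligns cells within the plane of a sheet, and its core proteins are the products of a small set of genes. Here 10 of these genes were followed in undifferentiated human pluripotent stem cells: VANGL1, VANGL2, CELSR1, CELSR2, CELSR3, PRICKLE1, PTK7, DVL1, DVL2 and DVL3. They were chosen by name, as the rows of the deposited count table that carry these gene names, and all 10 were found among its 58302 entries. All 10 also passed the filter on low counts, which left 14216 genes to test.

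The study removed KIF3A or KIF3B, the motor subunits of kinesin-2, which carries cargo along the primary cilium. In the induced pluripotent line WTC11, 2 control libraries (1 labelled with guide RNA 1 and 1 with guide RNA 2) stood beside 3 KIF3B-/- libraries (2 with guide RNA 1 and 1 with guide RNA 2). In the embryonic stem cell line WA09, 2 control libraries and 1 KIF3A-/- library, all labelled with guide RNA 1, were made, so the KIF3A-/- values have no replicate. All cells were untreated and kept in mTeSR1 medium with no feeder layer, and each library came from a small population of cells lysed directly. Multiple clones are mentioned for the series, but no label ties a library to its own clone or culture, so p-values here measure the spread between libraries, part of which may be technical.

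In planar polarity, CELSR cadherins, VANGL membrane proteins and the cytoplasmic PRICKLE proteins gather at cell borders with Frizzled receptors and Dishevelled (DVL) proteins, so that opposite sides of a cell carry different complexes. VANGL and PRICKLE proteins oppose Frizzled and Dishevelled, PTK7 is a receptor-like protein that works with VANGL proteins, and Dishevelled also serves the beta-catenin branch of WNT signalling. The pathway is best known for convergent extension, neural tube closure and the positioning of cilia in epithelia.

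Library totals ranged from 2161890 to 2875163 counts, and between 16658 and 18562 genes had a count, fewest in WTC11 controls 1 and 2 (16658 and 17348). A count of 0 allows up to 3 counts, or 1.08 to 1.38 CPM (CPM: counts scaled to a common total over the tested genes, with TMM scaling). KIF3A RNA stood at 33.1 CPM in the KIF3A-/- library and 65.0 ± 4.57 CPM (SD, n = 2) in the WA09 controls. KIF3B RNA was at 41.7 ± 6.59 CPM (n = 3) in the KIF3B-/- libraries and 29.6 ± 4.10 CPM (n = 2) in the WTC11 controls, and since a disrupted allele can keep its RNA, this level does not test the KIF3B genotype labels. All 8 pluripotency markers were detected, with summed levels of 3530 to 4860 CPM. Of 6 fibroblast markers 3 were detected (summed level 491 to 781 CPM, with THY1 alone at 297 to 442 CPM and DCN and LUM at 0). Of 5 neuroectoderm markers 2 were detected (63.6 to 142 CPM, nearly all from NES, with SOX1 at 0), highest in KIF3B-/- library 2, and the mesoderm, endoderm and amnion lists summed to at most 6.29 CPM. KIF3B-/- library 2 stood apart in COL1A1, with 124 CPM against 21.1 to 47.4 CPM in the other libraries. COL1A2 was also highest there, at 312 CPM against 118 to 165 CPM. Other fibroblast markers did not follow. That library had COL3A1 at 0, and its THY1 level of 344 CPM was below both WTC11 controls (422 and 437 CPM).

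The promoters are shown for the 2 VANGL paralogs, whose shares did not overlap between the control groups, and for PTK7 and DVL3, whose KIF3B-/- libraries all lay above their controls. Each run covers the 250 bases before the RefSeq start on the gene's strand, 5′ to 3′, from GRCh38.p14, and capitals mark the GC box (GGGCGG, or CCGCCC on the other strand). The VANGL1 window is chr1:115641720-115641969 and the VANGL2 window chr1:160400314-160400563, the PTK7 window is chr6:43076064-43076313 and the DVL3 window chr3:184155127-184155376, and all 4 genes lie on the plus strand.
VANGL1: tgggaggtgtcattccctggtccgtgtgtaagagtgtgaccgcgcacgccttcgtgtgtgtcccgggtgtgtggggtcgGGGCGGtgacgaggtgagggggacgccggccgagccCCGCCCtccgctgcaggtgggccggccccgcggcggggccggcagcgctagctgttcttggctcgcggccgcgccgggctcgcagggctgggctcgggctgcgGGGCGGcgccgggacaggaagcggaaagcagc
VANGL2: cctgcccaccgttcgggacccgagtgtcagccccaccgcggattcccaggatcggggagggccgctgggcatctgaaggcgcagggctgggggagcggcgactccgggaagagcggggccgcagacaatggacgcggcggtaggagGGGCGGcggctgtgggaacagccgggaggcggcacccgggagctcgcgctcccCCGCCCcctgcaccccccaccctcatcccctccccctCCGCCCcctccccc
PTK7: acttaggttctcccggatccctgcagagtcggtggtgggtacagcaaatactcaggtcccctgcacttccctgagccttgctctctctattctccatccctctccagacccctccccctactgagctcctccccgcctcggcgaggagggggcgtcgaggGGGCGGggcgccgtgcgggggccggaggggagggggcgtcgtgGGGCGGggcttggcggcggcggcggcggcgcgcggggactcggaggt
DVL3: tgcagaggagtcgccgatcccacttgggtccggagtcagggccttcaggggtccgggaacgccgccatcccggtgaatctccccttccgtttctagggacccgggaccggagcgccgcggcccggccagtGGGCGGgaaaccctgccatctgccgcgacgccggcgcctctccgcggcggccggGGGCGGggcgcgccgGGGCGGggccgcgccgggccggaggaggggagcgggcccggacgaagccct
VANGL1, VANGL2 and DVL3 hold 3 GC boxes each and PTK7 holds 2. Of the 10 genes, 9 had an entry in the promoter table, all 9 held at least 1 GC box, and DVL1 held the most with 5. Over all 27305 promoters of this length 42.3% held one. The E-box CACGTG occurred 3 times in the DVL2 promoter and in none of the other 8, against 6.49% of all promoters, and the TATA box TATAAA was in none of the 9, against 11.1%. The GC content of the windows printed was 75.2% for VANGL1, 76.4% for VANGL2, 71.6% for PTK7 and 77.6% for DVL3, against a median of 58.0% over all promoters. These are matches of letters and were not tested as binding sites.

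Levels were first compared between the genes, per kb of the longest annotated transcript. PTK7 (21.9 ± 4.68 CPM per kb, SD, n = 8 libraries), DVL3 (21.5 ± 4.50) and DVL2 (20.5 ± 3.74) were the most abundant, and their means over all libraries lay within their spread. The order turned between groups: in both WA09 controls PTK7 (25.6 and 26.6 CPM per kb) lay above DVL3 (16.2 and 15.5), and in the other 6 libraries DVL3 lay above PTK7. DVL3 exceeded DVL2 in 5 of 8 libraries. They lay at the 68.6th to 69.9th percentile of tested genes. VANGL2 (9.77 ± 3.84 CPM per kb), DVL1 (9.06 ± 2.32), PRICKLE1 (7.34 ± 3.63) and VANGL1 (6.45 ± 1.78) followed, near the median tested gene at 8.87, and neighbours in that order also overlapped, with each above the next in 4 to 6 of 8 libraries. DVL2 lay above VANGL2 in 7 of 8 libraries. The 3 CELSR cadherins were lowest. VANGL1 lay above CELSR2 (2.85 ± 1.15 CPM per kb) in 8 of 8 libraries, CELSR2 above CELSR3 (1.27 ± 0.488) in 7 of 8, and CELSR3 above CELSR1 (0.567 ± 0.458, the 5.31th percentile) in 7 of 8. The cadherin transcripts are long, at 10534 to 11956 bases against a median of 3585 for tested genes, so a full-length correction weighs most on them.

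**Figure D1:**
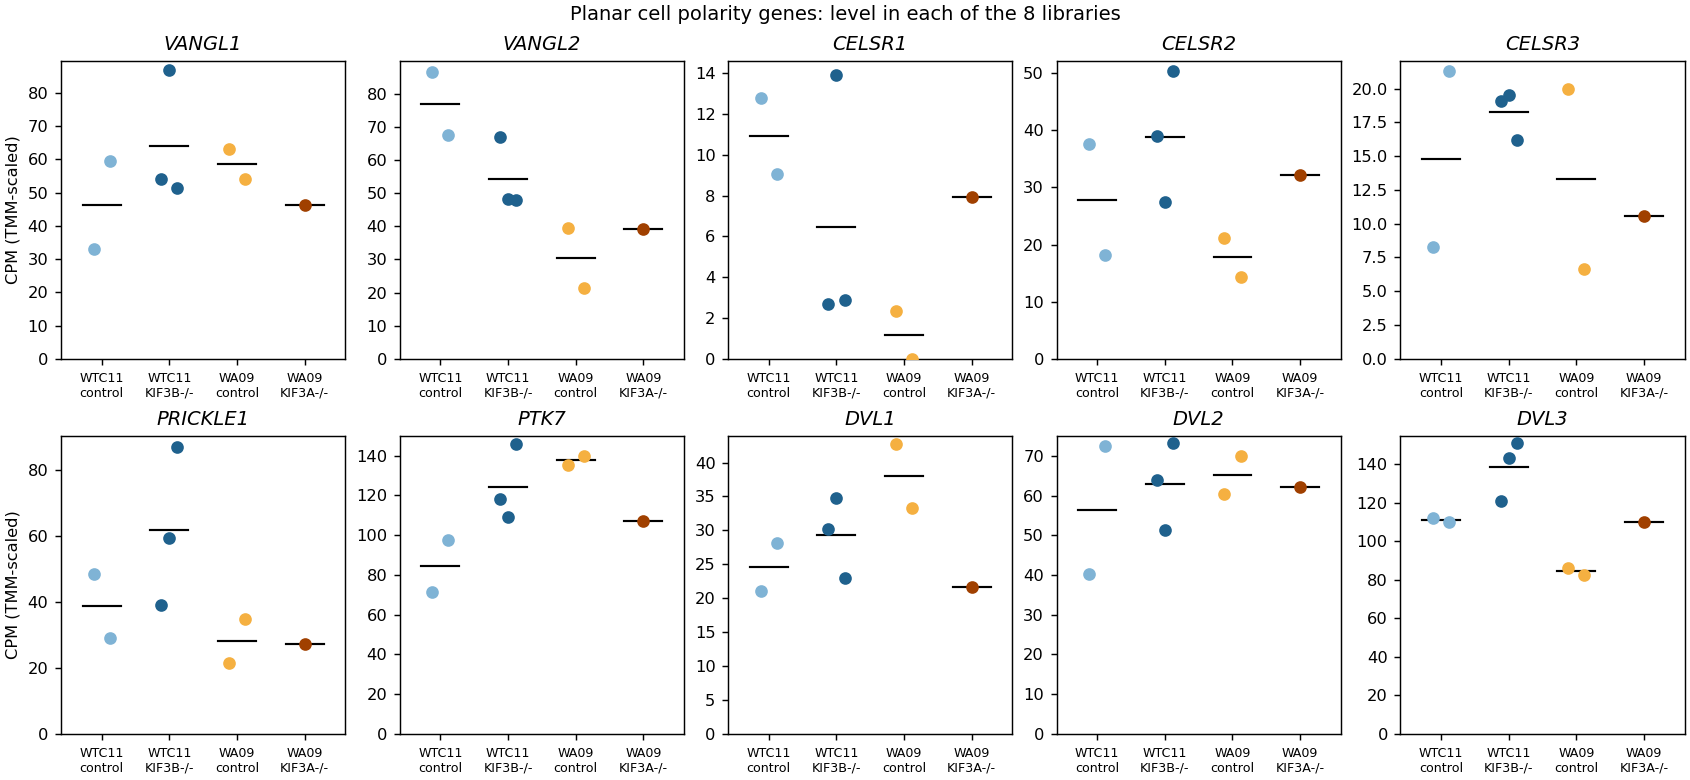
Level of each of the 10 genes in each of the 8 libraries. The vertical axis is CPM with TMM scaling, from 0 and with its own range for each gene; points are libraries, and horizontal lines are group means (the KIF3A-/- group is 1 library). The 2 WTC11 controls are the lowest points for PTK7, and the WA09 controls the lowest for DVL3.

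With edgeR's quasi-likelihood test, 0 of the 10 genes passed an adjusted p of 0.05 in any of 5 comparisons. Over all tested genes the share called was 0% for KIF3B-/- against WTC11 control, 0% for KIF3A-/- against WA09 control, 0% for the difference between these effects, 0.0281% (4 genes) between the 2 control groups and 0% for all knockouts against all controls with line as a term. At an unadjusted p under 0.05 the counts of the 10 genes were 1, 0, 1, 4 and 1 in that order. Over all tested genes that share was 16.6%, 3.71%, 9.3%, 15% and 8.59%, so 4 of 10 in the line comparison stood beside a background of 15%, and the other counts were within 1 gene of theirs. That count of 4 was 1 without WTC11 control 1, 2 without WA09 control 2, 2 with the line term over all 8 libraries and 0 with the number of detected genes as a covariate. Limma voom and DESeq2 also called 0 of the 10 genes in each of the 5 comparisons. Differences below are therefore values in these libraries and not called changes.

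VANGL1 and VANGL2 encode the 4-pass membrane proteins at the centre of the complex that opposes Frizzled. VANGL2 (ENSG00000162738, GRCh38 chromosome 1, 160400586 to 160428678) was at 86.6 and 67.5 CPM in the WTC11 controls and at 66.8, 48.2 and 47.8 CPM in the KIF3B-/- libraries. In WA09 it was at 39.6 and 21.5 CPM in the controls and 39.3 CPM in the KIF3A-/- library. All 5 WTC11 libraries lay above all 3 WA09 libraries, with the lowest WTC11 value at 47.8 and the highest WA09 value at 39.6 CPM. VANGL2 was the only one of the 10 genes with that order, which 7.23% of all tested genes had, and none of the 10 had the opposite order, which 7.91% had. The nearest VANGL2 values of the lines, 47.8 and 39.6 CPM, had overlapping 95% Poisson intervals (40.0 to 56.6 and 32.3 to 48.2).

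The VANGL2 difference between the control groups was 1.34 ± 0.35 on the log2 scale (WTC11 minus WA09, edgeR adjusted p = 0.16). Leaving out WA09 control 2, its lowest library, brought this to 0.96, and leaving out WA09 control 1 to 1.83. With no filter on low counts it passed (1.33, edgeR adjusted p = 0.0107). As a line term over all 8 libraries, an alternative added after the values were seen, it was 0.95 ± 0.28 (edgeR adjusted p = 0.109). In KIF3B-/- cells VANGL2 stood at -0.51 ± 0.30 against the WTC11 controls (edgeR adjusted p = 0.439). Every KIF3B-/- library was below both controls, though the nearest pair, 66.8 and 67.5 CPM, had overlapping 95% Poisson intervals (57.3 to 77.5 and 57.1 to 79.3). The KIF3A-/- value lay within its 2 controls' range, at 0.36 ± 0.42 (adjusted p = 1).

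VANGL1 (ENSG00000173218, chromosome 1, 115641953 to 115698224) held 33.0 and 59.4 CPM in the WTC11 controls and 54.2, 86.9 and 51.4 CPM in the KIF3B-/- libraries, which overlapped. In WA09 it was at 63.2 and 54.0 CPM in controls and, below both, at 46.3 CPM in the KIF3A-/- library. The highest value came from KIF3B-/- library 2, which also had the highest COL1A1 and COL1A2 levels. What part that library's makeup had was not tested. The fitted differences were 0.47 ± 0.33 for KIF3B-/- and -0.34 ± 0.44 for KIF3A-/- (edgeR adjusted p = 0.511 and 1). The first ranged from 0.11 without WTC11 control 1 to 0.96 without WTC11 control 2.

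As a share of the 2 paralogs per kb, VANGL2 made up 81.0% and 64.9% in the WTC11 controls, 66.7%, 47.5% and 60.2% in KIF3B-/-, 50.5% and 39.3% in the WA09 controls and 58.0% in KIF3A-/-. The 2 WTC11 controls thus held more VANGL2 than VANGL1 per kb while WA09 control 2 and KIF3B-/- library 2 held less. The WTC11 and WA09 controls did not overlap in this share, while the KIF3B-/- libraries reached into both. The KIF3A-/- library lay above both WA09 controls. These shares were not tested, and how often shares of other gene pairs separate the controls was not computed. Of single tested genes, 23.6% had both WTC11 controls above both WA09 controls and 23.7% had both below.

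**Figure D2:**
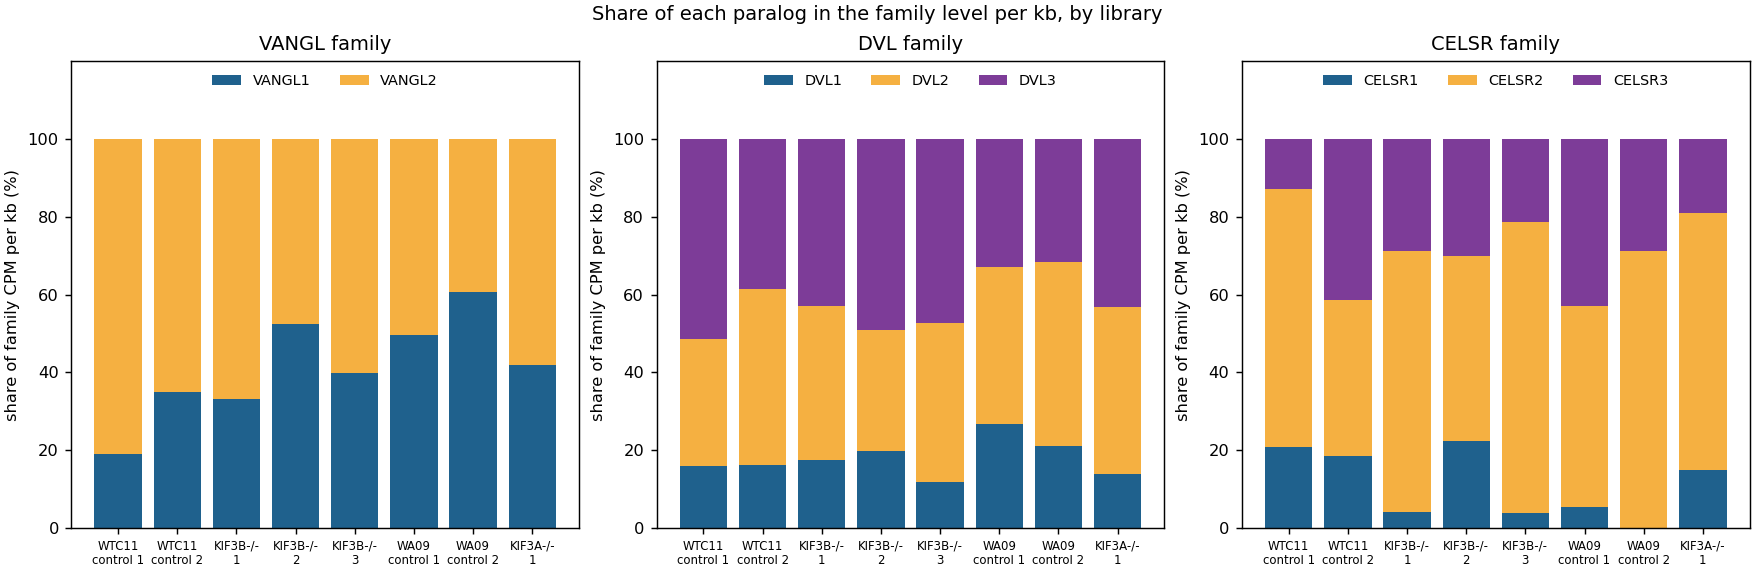
Share of each paralog in the summed CPM per kb of its family, in percent, 1 bar per library. VANGL2 is largest in WTC11 control 1 (81.0%) and smallest in WA09 control 2 (39.3%), DVL1 is the smallest DVL share in every library, and CELSR1 has a count of 0 in WA09 control 2.

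PTK7, the receptor-like protein of the group with an inactive kinase domain (ENSG00000112655, chromosome 6, 43076268 to 43161719), had the 2 WTC11 controls as its lowest libraries, at 71.5 and 97.4 CPM. The KIF3B-/- libraries held 118, 109 and 146 CPM, the WA09 controls 135 and 140 CPM, and the KIF3A-/- library 107 CPM. KIF3B-/- libraries were thus all above their controls and the KIF3A-/- library below both of its own. The nearest KIF3B-/- and control values, 109 and 97.4 CPM, had overlapping 95% Poisson intervals (96.0 to 123 and 84.8 to 111). Among all tested genes, 16.5% had every KIF3B-/- library higher than both controls and 18% every one lower; 2 of the 10 genes were in the first class (PTK7 and DVL3) and 1 in the second (VANGL2). The knockouts lay on opposite sides of their controls for PTK7 alone of the 10, and for 13.1% of all tested genes.

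The PTK7 mean was 124 ± 19.0 CPM (n = 3) in KIF3B-/- and 84.5 ± 18.3 CPM (n = 2) in WTC11 controls, a log2 difference of 0.56 ± 0.19 (edgeR adjusted p = 0.212). It was 0.35 without WTC11 control 1, 0.80 without WTC11 control 2, 0.35 with the trend over transcript length removed and 0.11 ± 0.26 with the number of detected genes as a covariate. In KIF3A-/- it was -0.37 ± 0.26 (adjusted p = 1). The difference between the 2 effects was -0.92 ± 0.32 (edgeR adjusted p = 0.515), and with 1 library left out it stayed between -1.17 and -0.72. It was -0.68 ± 0.30 with the length trend removed and -0.30 ± 0.39 with detected genes as a covariate. Between controls PTK7 was lower in WTC11 by 0.70, written as -0.70 ± 0.21 (edgeR adjusted p = 0.19), and by 0.15 with detected genes as a covariate (-0.15 ± 0.31). The KIF3B, line and difference values all use the same 2 WTC11 controls and are not independent of one another.

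Dishevelled proteins carry the signal from Frizzled into the cytoplasm. DVL3 (ENSG00000161202, chromosome 3, 184155311 to 184173614) was close between the 2 libraries of each control group, at 112 and 110 CPM in WTC11 and 86.3 and 82.5 CPM in WA09. The KIF3B-/- libraries held 121, 143 and 151 CPM and the KIF3A-/- library 110 CPM, each above both controls of its line. The nearest values had overlapping 95% Poisson intervals in both lines. These were 108 to 136 and 98.7 to 127 for 121 and 112 CPM in WTC11. In WA09 they were 97.0 to 125 and 75.3 to 98.5 for 110 and 86.3 CPM. DVL3 was the only one of the 10 genes for which every knockout library in both lines lay above its controls, an order that 5.14% of all tested genes had. Its log2 difference was 0.32 ± 0.16 in KIF3B-/- (edgeR adjusted p = 0.348), 0.39 ± 0.21 in KIF3A-/- (adjusted p = 1) and 0.35 ± 0.13 in the pooled fit (edgeR adjusted p = 0.565). The effects in the 2 lines differed by 0.07 ± 0.27. Between controls DVL3 was higher in WTC11 by 0.39 ± 0.17 (edgeR adjusted p = 0.331). The KIF3B value stayed between 0.25 and 0.40 with 1 library left out and was 0.10 ± 0.15 with the length trend removed.

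DVL2 (ENSG00000004975, chromosome 17, 7225341 to 7234545) varied least over the 8 libraries of all 10 genes, with an SD of 0.29 in log2 CPM. It had 40.3 and 72.5 CPM in the WTC11 controls, 63.8, 51.3 and 73.3 CPM in KIF3B-/-, then 60.4 and 70.0 CPM in WA09 controls and 62.2 CPM in KIF3A-/-. Both knockout groups overlapped their controls, and the KIF3B difference of 0.16 ± 0.29 became -0.21 without WTC11 control 1. DVL1 (ENSG00000107404, chromosome 1, 1335276 to 1349350) had 21.1 and 28.1 CPM, then 30.2, 34.7 and 23.0 CPM, in the WTC11 controls and KIF3B-/- libraries, which overlapped. In WA09 it had 42.8 and 33.3 CPM in the controls and 21.6 CPM in KIF3A-/-, below both, at -0.81 ± 0.46 (edgeR adjusted p = 1). The DVL1 difference between the KIF3A and KIF3B effects was -1.06 ± 0.57 (edgeR adjusted p = 0.578).

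Of the family level per kb, averaged over the 8 libraries, DVL3 took 42.1%, DVL2 40.0% and DVL1 17.9%. DVL1 was the smallest share in every library, from 11.9% in KIF3B-/- library 3 to 26.7% in WA09 control 1. The DVL3 share was lowest in the 2 WA09 controls, at 32.7% and 31.6%, against 38.6% to 51.4% in the other 6 libraries. This share was not tested, and how often such an order arises in other families was not computed.

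CELSR1, CELSR2 and CELSR3 encode large cadherins with 7 membrane passes that bridge the 2 cells at a border. CELSR2 (ENSG00000143126, chromosome 1, 109250019 to 109275750) carried most of the family level, 60.5% per kb averaged over the libraries, against 28.2% for CELSR3 and 11.3% for CELSR1. It had 37.6 and 18.1 CPM in the WTC11 controls, 39.0, 27.4 and 50.3 CPM in KIF3B-/-, and in WA09 21.2 and 14.4 CPM in controls and 32.2 CPM in KIF3A-/-. The KIF3A-/- library lay above both WA09 controls, while the WTC11 groups overlapped. The log2 difference was 0.48 ± 0.41 in KIF3B-/-, 0.85 ± 0.55 in KIF3A-/- and 0.61 ± 0.32 in the pooled fit (edgeR adjusted p = 0.602, 1 and 0.602). The KIF3B value was 0.05 without WTC11 control 2 and 1.10 without WTC11 control 1, and the pooled value 0.41 and 0.99.

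CELSR1 (ENSG00000075275, chromosome 22, 46360834 to 46537170) was near the limit of detection, and its counts are given. The WTC11 controls had 28 and 20 counts, the KIF3B-/- libraries 7, 32 and 8, the WA09 controls 6 and 0, and the KIF3A-/- library 18. The count of 0 in WA09 control 2 allows up to 1.11 CPM by the limit of 3 counts, and its 95% Poisson interval reaches 1.37 CPM. The KIF3A-/- library had 7.94 CPM with a 95% Poisson interval of 4.71 to 12.5, which overlaps that of WA09 control 1 (0.864 to 5.12). These intervals cover counting error only. KIF3B-/- library 2 again stood apart, at 13.9 CPM against 2.67 and 2.87 CPM in the other 2. No difference of CELSR1 was called: edgeR adjusted p was 0.741 in KIF3B-/-, 1 in KIF3A-/- and 0.29 between controls, where the WTC11 mean was 10.9 ± 2.66 CPM and the WA09 mean 1.18 ± 1.66 CPM. Its fitted fold changes against the group that holds the 0 depend on the prior count and set no bound.

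CELSR3 (ENSG00000008300, chromosome 3, 48636469 to 48662915) had 8.25 and 21.3 CPM in the WTC11 controls, 19.1, 19.5 and 16.2 CPM in KIF3B-/-, and in WA09 20.0 and 6.66 CPM in controls and 10.6 CPM in KIF3A-/-. Its spread between the 2 controls of each line was larger than any difference between groups, and the KIF3B-/- libraries lay between their 2 controls. The KIF3B difference of 0.30 ± 0.57 became -0.22 without WTC11 control 1 and 1.15 without WTC11 control 2.

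PRICKLE1 encodes the cytoplasmic partner that binds VANGL proteins (ENSG00000139174, chromosome 12, 42456757 to 42590355). It had 48.6 and 29.0 CPM in the WTC11 controls, 39.0, 59.5 and 87.0 CPM in KIF3B-/-, and in WA09 21.6 and 34.8 CPM in controls and 27.3 CPM in KIF3A-/-. The groups overlapped in both lines, and the highest value was in KIF3B-/- library 3. Its KIF3B difference of 0.67 ± 0.40 was not called (edgeR adjusted p = 0.433) and was 0.34 without KIF3B-/- library 3, 0.35 without WTC11 control 2 and 1.09 without WTC11 control 1, and the KIF3A difference was -0.05 ± 0.55. PRICKLE1 shares 438 exon bases with PPHLN1 on the opposite strand, a gene with 2725 counts over the 8 libraries against 862 for PRICKLE1. The treatment of strand is not given in the sources used here, so reads in the shared bases cannot be told apart.

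**Figure D3:**
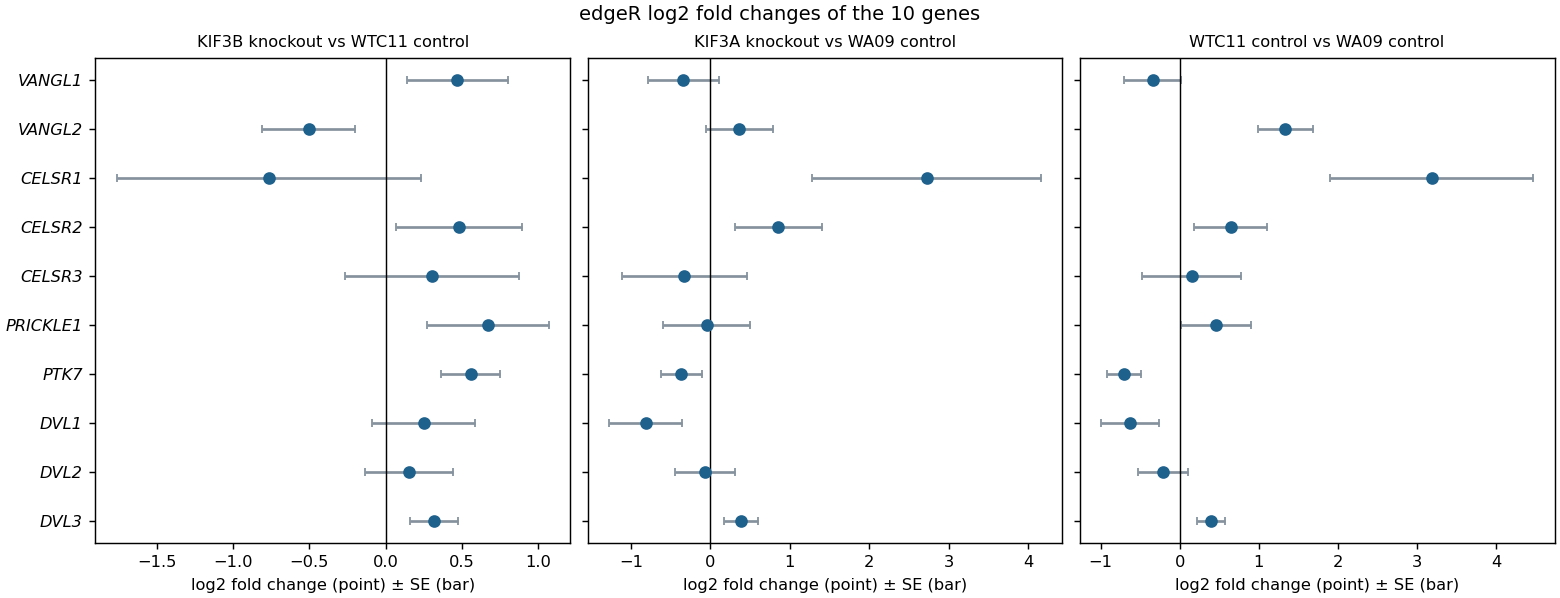
edgeR log2 fold change (point) ± SE (bar) of the 10 genes for KIF3B-/- over WTC11 control, KIF3A-/- over WA09 control and WTC11 control over WA09 control. The horizontal axes differ in range, none of the 30 values was called, and PTK7 lies right of 0 in the first panel (0.56) and left of 0 in the second (-0.37) and the third (-0.70).

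Across the set, 8 of the 10 genes were higher in KIF3B-/- than in WTC11 controls, as were 51.7% of all tested genes. The median log2 difference was 0.31 against 0.03 over all tested genes. The exceptions among the 10 were VANGL2 and CELSR1. The median was 0.08, with 6 of 10 higher, without WTC11 control 1, and 0.41 without WTC11 control 2. Over all tested genes, transcript length and fold change in this comparison were related (Spearman rank correlation 0.354 across genes, which are not independent replicates), and the 10 genes have a median length of 5621 bases against 3585. With that trend removed the median was 0.15, again with 8 of 10 higher, and VANGL2 moved to -0.71 ± 0.30 (edgeR adjusted p = 0.389) and CELSR3 to 0.02. With detected genes as a covariate the median was 0.33 (8 of 10 higher), against -0.03 over all tested genes. In that fit CELSR1 moved to 0.999 ± 1.31 and DVL2 to -0.55 ± 0.37.

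**Figure D4:**
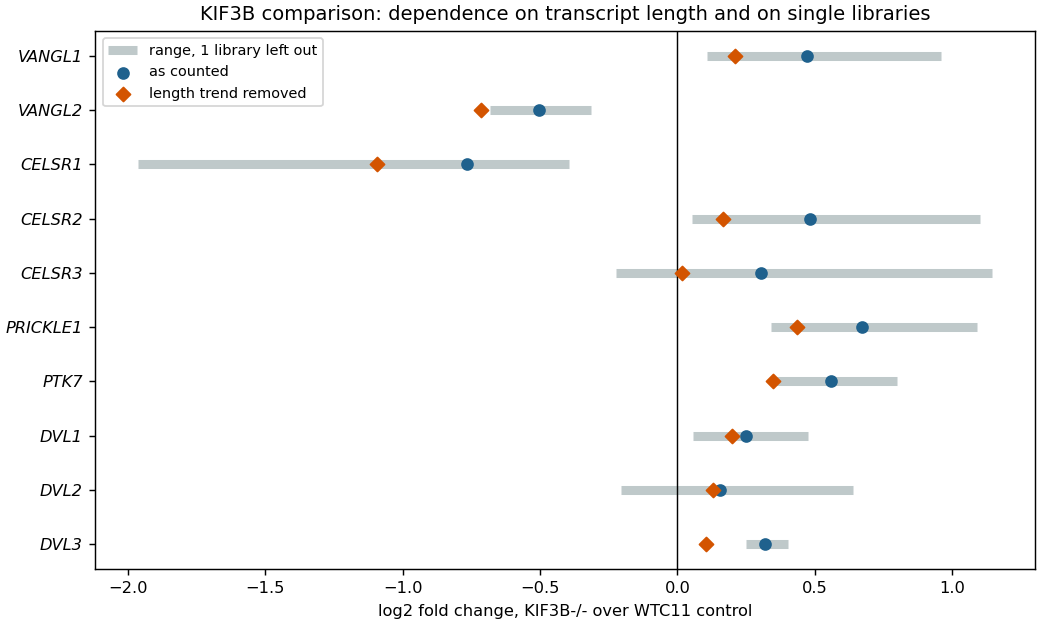
Log2 fold change of the 10 genes in KIF3B-/- over WTC11 control as counted (circles), with the trend over transcript length removed (diamonds) and as the range over fits that leave out 1 library (grey bars). VANGL2 and CELSR1 stay below 0 in all of these, and the bars of CELSR3 (-0.22 to 1.15) and DVL2 (-0.21 to 0.64) cross 0. With detected genes as a covariate, which is not drawn, CELSR1 lies above 0 (0.999).

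In the WA09 line the KIF3A-/- library was above the control mean for 4 of the 10 genes in the fit and for 48% of all tested genes. The median was -0.06 against -0.02 over all genes. The KIF3A-/- library lay above both controls for CELSR1, CELSR2 and DVL3 and below both for VANGL1, PTK7 and DVL1. That is 3 genes each way, where 33.8% and 33% of all tested genes lay above and below. The difference between the KIF3A and KIF3B effects was positive for 4 of 10 genes and for 48.1% of all tested genes. Its median was -0.43 against -0.04 for all genes. The median was -0.12 without WA09 control 1, -0.18 without WTC11 control 1, -0.22 without WA09 control 2 and -0.24 without KIF3B-/- library 3, and in this design the line and the deleted subunit cannot be told apart. In the pooled fit 8 of 10 were higher in knockouts, as were 51.2% of all tested genes, with a median of 0.22 against 0.01 over all genes. The pooled median became 0.01 without WTC11 control 1. Over all tested genes, fold change was also related to transcript length in the pooled fit (Spearman rank correlation 0.324) and the difference of effects (-0.28). With that trend removed the medians of the 10 genes were 0.09 (7 higher) and -0.27. With detected genes as a covariate they were 0.09 (6 higher) and -0.13.

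Between the control groups, WTC11 exceeded WA09 in 6 of the 10 genes in the fit and in 49.4% of all tested genes. The median was 0.27 against -0.01 for all genes. It was -0.14 without WTC11 control 2 and 0.46 (7 higher) with detected genes as a covariate. VANGL2, CELSR1 and DVL3 had both WTC11 controls above both WA09 controls, which 23.6% of all tested genes had. PTK7 and DVL1 had both below, which 23.7% had. The 4 genes with an unadjusted p under 0.05 were VANGL2, CELSR1, PTK7 and DVL3.

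The wider pathway is given from 5 lists, and edgeR called 0 of their members in either direction in any comparison. In the order of the lists below, 12, 8, 13, 6 and 6 members were tested. Of these 1, 2, 2, 1 and 0 had an unadjusted p under 0.05 in KIF3B-/-, against 16.6% of all tested genes. In KIF3A-/- the counts were 0, 2, 2, 0 and 0, against 3.71%. Over all tested genes 51.7% were higher in KIF3B-/- and 48% in KIF3A-/-. Of 13 noncanonical WNT ligands, receptors and coreceptors 12 were tested, 10 of them higher in KIF3B-/- (median 0.33) and 5 in KIF3A-/- (median -0.12). GPC4, a glypican coreceptor and the most abundant member, had 236 and 293 CPM in the WTC11 controls and 309, 401 and 396 CPM in KIF3B-/-, above both. In WA09 it had 248 and 175 CPM in controls and 276 CPM in KIF3A-/-, again above both, and its differences were 0.48 ± 0.18 and 0.38 ± 0.23 (edgeR adjusted p = 0.23 and 1). The Frizzled receptor FZD7 held 175 ± 4.73 CPM (n = 2) in WTC11 controls and 207 ± 31.7 CPM (n = 3) in KIF3B-/-.

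Of 9 other PRICKLE and core-associated genes 8 were tested, with 6 higher in KIF3B-/- (median 0.17) and 3 in KIF3A-/- (median -0.08). ATP6AP2, the prorenin receptor, was at 0.02 ± 0.14 in KIF3B-/-, and GIPC1, an adaptor in vesicle traffic, at -0.40 ± 0.17 (edgeR adjusted p = 0.289). Of 14 Dishevelled partners and regulators 13 were tested, 7 higher in KIF3B-/- (median 0.15) and 4 in KIF3A-/- (median -0.31). The deubiquitinase USP14 was at 0.22 ± 0.10 and 0.03 ± 0.13. CSNK1D, a kinase of Dishevelled, held 101 and 131 CPM in WTC11 controls and 160, 151 and 182 CPM in KIF3B-/-. In WA09 it held 108 and 127 CPM in controls and 75.4 CPM in KIF3A-/-, so that like PTK7 it lay on opposite sides of its controls. The difference between its effects was -1.14 ± 0.29 (edgeR adjusted p = 0.515).

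The 6 polarity effectors at the cilium base had medians of 0.34 in KIF3B-/- and 0.29 in KIF3A-/-. Of these WDPCP stood at 55.3 ± 5.43 CPM (n = 3) in KIF3B-/- and 34.0 ± 2.53 CPM (n = 2) in controls (0.70 ± 0.26, edgeR adjusted p = 0.23). In KIF3A-/- WDPCP was at 24.3 CPM, below both WA09 controls (33.7 and 34.4 CPM), at -0.49 ± 0.36, and the difference of its effects was -1.19 ± 0.44 (edgeR adjusted p = 0.515). TMEM67 of the transition zone was at 29.5 ± 13.4 CPM in KIF3B-/- and 20.3 ± 14.0 CPM in their controls. In the FAT and Dachsous branch, a second polarity system built of large cadherins, 6 of 8 genes were tested, with medians of 0.42 and 0.52. Its most abundant members FAT1 and FAT3 were at 0.43 ± 0.37 and -0.41 ± 0.31 in KIF3B-/-. The all-gene medians beside these lists were 0.03 for KIF3B-/- and -0.02 for KIF3A-/-.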

How the data were processed

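RNA of 8 libraries was measured by SMART-Seq amplification and Nextera XT libraries from polyA RNA, per the labels' protocols. The authors deposited raw counts of reads for each gene as whole numbers; the submitters' processing notes name STAR and hg38. For the counter, the annotation, and the handling of strand, duplicates and multimapping reads, details were not given in the sources used. The 20993 entries without a gene symbol carry gene identifiers, held 0.446% to 0.673% of counts and were kept. Transcript lengths and positions came from GENCODE on GRCh38, and promoters from RefSeq.

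Genes were filtered with filterByExpr and tested with edgeR 4.0.16 in R 4.3.3 (quasi-likelihood F test, robust, TMM, Benjamini-Hochberg over all tested genes, threshold 0.05). 4 comparisons were contrasts of group means in 1 fit of 8 libraries (14216 genes), in which the lone KIF3A-/- library was assumed to vary like the others. The pooled fit had line as a term (13238 genes). Log2 fold changes carry an SE, which for edgeR was worked back as the size of the fold change divided by the square root of F. The fits were tested on simulated counts. Alternatives were RLE scaling, no filter, DESeq2 1.42.0, limma voom 3.58.1, a block by guide number, length trends removed (lowess, span 0.3), detected genes as covariate, only the 2 groups compared, and each library left out. No pair of replicates agreed within counting noise (chi-square/df 5.9 to 8.37). The 10 genes and the lists were chosen with earlier results of these data known, and 1 list is not reported here. All 10 were to be described; of each list, the members called or else the 2 most abundant; likeness was given for the 3 members of largest SD with a mean of at least 5 CPM.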

Additional observations from a re-analysis of the deposited data

Results flagged for a closer look

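PTK7 is given here because it alone of the 10 genes had every knockout library of each line outside the range of its controls, in opposite directions: every KIF3B-/- library was above both WTC11 controls (118, 109 and 146 against 71.5 and 97.4 CPM), and the KIF3A-/- library was below both WA09 controls (107 against 135 and 140 CPM). The difference of the effects, KIF3A minus KIF3B, was -0.92 ± 0.32 on the log2 scale and did not pass (edgeR adjusted p = 0.515, and 0.24 to 0.955 over its alternatives). Of all tested genes 13.1% had knockouts on opposite sides of their controls. For PTK7 the nearest KIF3B-/- and control values, 109 and 97.4 CPM, had overlapping 95% Poisson intervals. Opposite signs of the 2 fitted effects were common: 8 of the 10 genes had them, all but CELSR2 and DVL3, as had 52.1% of all tested genes, and the differences for DVL1 (-1.06 ± 0.57) and CELSR1 (adjusted p = 0.561 with edgeR) were larger in size than that for PTK7. The 2 WTC11 controls, lowest of the 8 libraries for PTK7, were also those with the fewest detected genes (16658 and 17348). With that number as a covariate the KIF3B value was 0.11 ± 0.26 and the difference of the effects was -0.30 ± 0.39. Both WTC11 controls had fewer detected genes than every KIF3B-/- library (17469 to 18562). In this comparison that number and the genotype therefore cannot be fully told apart.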

How the results depend on the processing

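None of the 10 genes was called under any alternative in any of the 5 comparisons, except VANGL2 between the control groups with no filter on low counts (1 gene, 1.33). Of the values of single genes under alternatives, 733 kept direction and side of the threshold and 36 changed sign without being called in either fit. Of these sign changes 9 came with detected genes as a covariate and 9 without WTC11 control 1. Counts of all genes called moved more. With no filter they were 676 (KIF3B), 2 (KIF3A), 160 (difference), 525 (between controls) and 154 (pooled), and with DESeq2 209, 1, 17, 189 and 35, where edgeR called 0, 0, 0, 4 and 0. The 4 genes between controls became 0 with RLE scaling, limma voom, detected genes as a covariate or only the 2 groups, and 131 with the line term over all 8 libraries. With 1 library left out, counts ran from 0 to 5 (KIF3B), 0 to 1 (KIF3A), 0 to 1 (difference) and 0 to 1 (between controls). The replicate block by guide number gave 1 gene for KIF3B and 0 between controls. WTC11 libraries that share a guide number had correlations of 0.126, -0.12 and -0.0105 between their deviations from the group means. With 2 controls the deviations of one mirror those of the other, so these values cannot decide whether the number pairs libraries. The count of 0 for CELSR1 in WA09 control 2 allows up to 1.11 CPM, so depth sets only an upper limit there.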

Other observations

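Of the 10 genes, CELSR1, PRICKLE1 and CELSR3 varied most over the 8 libraries (SD of log2 CPM 1.41, 0.64 and 0.61). CELSR1 had only 0 to 32 counts and CELSR3 18 to 51, so counting error is part of their SD and correlations. The value for the count of 0 also depends on the prior count. Among 11825 genes the patterns most like CELSR1 were those of CMTM3 (Pearson r = 0.969, Spearman rho = 0.905), ZNF664 (0.965 and 0.905) and TAOK2 (0.946 and 0.952). Most like PRICKLE1 were C7orf49 (r = 0.947, rho = 0.929), MYO9B (0.943 and 0.976) and CUL4A (0.941 and 0.976). CELSR3 was nearest to UHMK1 (r = 0.976, rho = 0.714), TMEM117 (0.973 and 0.976) and SLC30A6 (0.963 and 0.929). CUL4A had 240, 304 and 313 CPM in KIF3B-/-, 208 and 175 CPM in the WTC11 controls, and in WA09 131 and 194 CPM in controls and 149 CPM in KIF3A-/-, lowest and highest in the same libraries as PRICKLE1. These are descriptions over 8 libraries that share group differences, depth and the search for the best of many genes, with no p.

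Among the 10 genes themselves, the closest patterns by Pearson r were those of PRICKLE1 and DVL3 (r = 0.803, rho = 0.81, n = 8 libraries) and of CELSR2 and DVL3 (0.756 and 0.833). By Spearman rho VANGL1 and DVL1 were closest (0.881, with r = 0.738). CELSR1 and PTK7 (r = -0.753) and VANGL2 and PTK7 (r = -0.717) ran opposite over the libraries, with CELSR1 near the limit of detection.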
